A study of Homo sapiens with 6 samples.

Results

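Molecular chaperones and their cochaperones were followed at the transcript level in DU145, an established line of human prostate cancer cells, with and without depletion of the ubiquitin ligase E6AP. Members were taken by a rule on gene symbols that uses no measured value, although the rule was written with earlier results of these data known. They are the rows of the deposited count table named for the HSP70 and HSP110 family (HSPA genes and HSPH1), small heat shock proteins (HSPB), HSP90, the J-domain families DNAJA, DNAJB and DNAJC, the mitochondrial chaperonin (HSPD1 and HSPE1), the cytosolic chaperonin (TCP1 and the CCT genes) and BAG1 to BAG6, with AHSA1, STIP1, HSF1 and HSF2. Names ending in P and digits were left out, except TCP1 and STIP1, which the rule lists by name. The rule found 98 of the 33835 genes in the table. Of these, 88 held enough reads to be tested and 10 did not.

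The study compared a pair of groups. The shE6AP group (3 libraries) carried a short hairpin against E6AP, the product of UBE3A, and the wobble group (3 libraries) carried the wobble control for that hairpin. All 6 libraries came from cells given doxycycline at 0.2 µg/ml for 2.5 days, so the inducer does not distinguish the groups. The labels do not say whether the transduced cells were pools or single clones, nor whether the libraries of a group came from separate cultures. The p-values therefore measure the spread between these libraries, which may be technical.

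Chaperones bind unfolded or partly folded proteins and keep them from aggregating. HSP70 proteins hold a client while bound to ADP, J-domain proteins bring clients and trigger ATP hydrolysis, and BAG and HSP110 proteins release the nucleotide and so the client. HSP90 acts later on nearly folded clients such as kinases and steroid receptors, with help from cochaperones, while chaperonins fold actin, tubulin and other clients inside a closed barrel. Small heat shock proteins hold unfolding proteins without using ATP. In stressed cells the transcription factor HSF1 raises many of these genes together, and many tumours, prostate cancer among them, depend on HSP90 and HSP70 activity.

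Gene reads ran from 21558506 to 30488217 per library, and 1 read was worth 0.0330 to 0.0468 CPM, the unit of level used here (gene reads scaled to a common library size with TMM factors). A mean is followed by its SD, with n = 3 libraries. Every fold change is given as log2 of shE6AP over wobble, with a standard error (SE) from edgeR's quasi-likelihood test, and a gene passed at a Benjamini-Hochberg adjusted p under 0.05 over all 19433 genes tested. UBE3A stood at 14.2, 14.5 and 14.97 CPM in the shE6AP libraries and at 54.1, 55.4 and 57.9 CPM in the wobble libraries, the direction that the labels give. The epithelial markers KRT8, KRT18, KRT19, EPCAM and CDH1 were all present and together came to 1052 to 1088 CPM in shE6AP and 918 to 948 CPM in wobble. Blood markers summed to at most 3.55 CPM, endothelial markers to at most 0.667 CPM and fibroblast markers, almost all COL1A1, to at most 18.7 CPM. All of these sums were higher in shE6AP, while the neuroendocrine markers CHGA and SYP came to 2.66 to 2.92 CPM there and to 3.50 to 4.03 CPM in wobble. CD3E, HBB and PECAM1 have no row, and the part of these markers in the results below was not tested. Since these are bulk RNA samples, fewer cells expressing a gene and less of its RNA per cell cannot be told apart.

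Chaperone transcripts moved in both directions, and most moved little. Of the small heat shock proteins 3 of 5 tested were lower in shE6AP. The HSP90 cochaperones AHSA1 and STIP1, both heat shock factors, both mitochondrial chaperonin genes and most subunits of the cytosolic chaperonin were also lower, while the mitochondrial HSP70 HSPA9, the exchange factor HSPA4 and several J-domain and BAG genes were higher. Among the 88 tested members, 30 were higher, 35 were lower and 23 did not pass. The 65 that passed make up 73.9% of the members, where 59% of all genes tested passed, 28.6% higher and 30.4% lower. At least doubled were 2 members, DNAJB13 and DNAJC15, where 3.23% of all genes tested were, and at least halved were 5 (HSPB1, HSPB7, HSPB8, DNAJC22 and DNAJC5G), where 3.51% of all genes were. The median log2 fold change was -0.06 over the members and 0.01 over all genes. The median size of change, whatever its direction, was 0.24 on the log2 scale for members and 0.26 for all genes. Groups did not overlap for 66 of the tested members (75%) and for 62.6% of all genes tested. Counts of calls by class and statements on overlap below are to be read against these shares over all genes.

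Much of this movement was small. Of the 65 members that passed, 27 had changed by less than 1.2-fold. Against a fold of 1.2 as the null, edgeR's glmTreat called 10 members higher and 17 lower, where it called 13.1% of all genes higher and 15.9% lower. The summed level of all members was 11969, 11946 and 11924 CPM in shE6AP and 12421, 12052 and 12327 CPM in wobble, so the total in shE6AP was 97.4% of that in wobble.

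**Figure D1:**
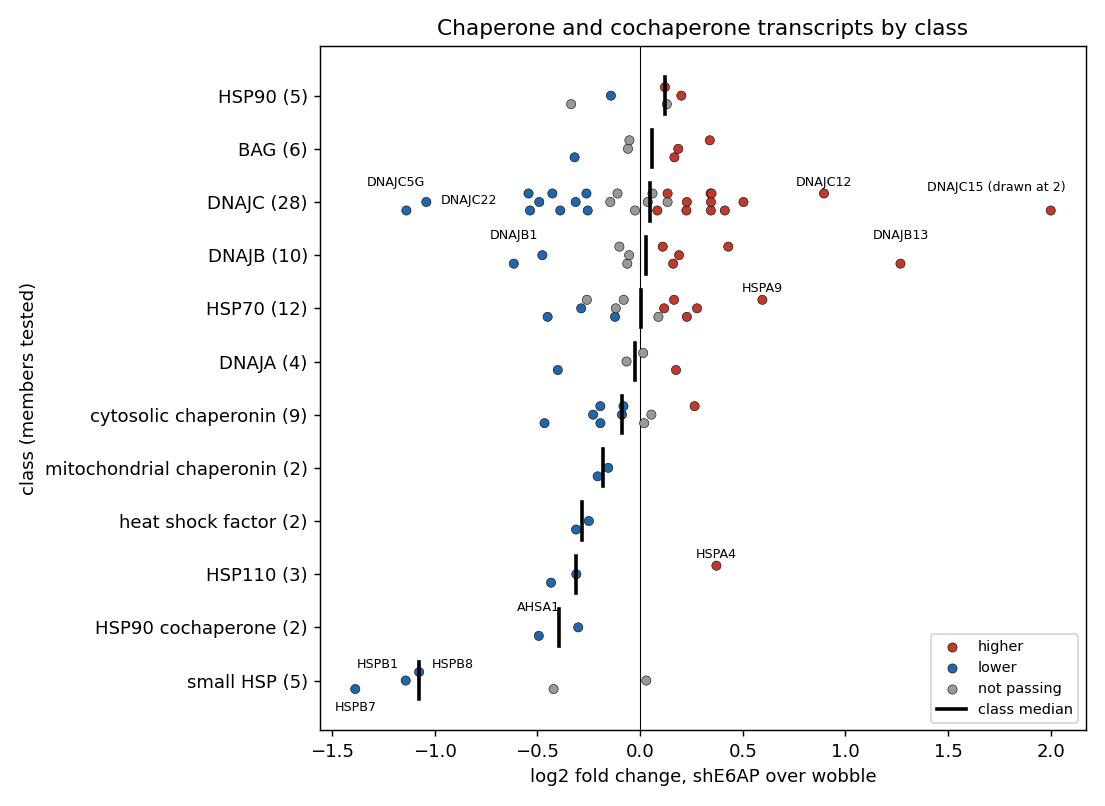
Log2 fold change of each tested chaperone member (horizontal axis, shE6AP over wobble) by class (vertical axis, with the number tested); each point is 1 gene, coloured by the test, and the black bar is the class median. The class medians run from -1.08 for small heat shock proteins to 0.12 for HSP90, and DNAJC15, at 3.77, is drawn at 2.

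**Figure D2:**
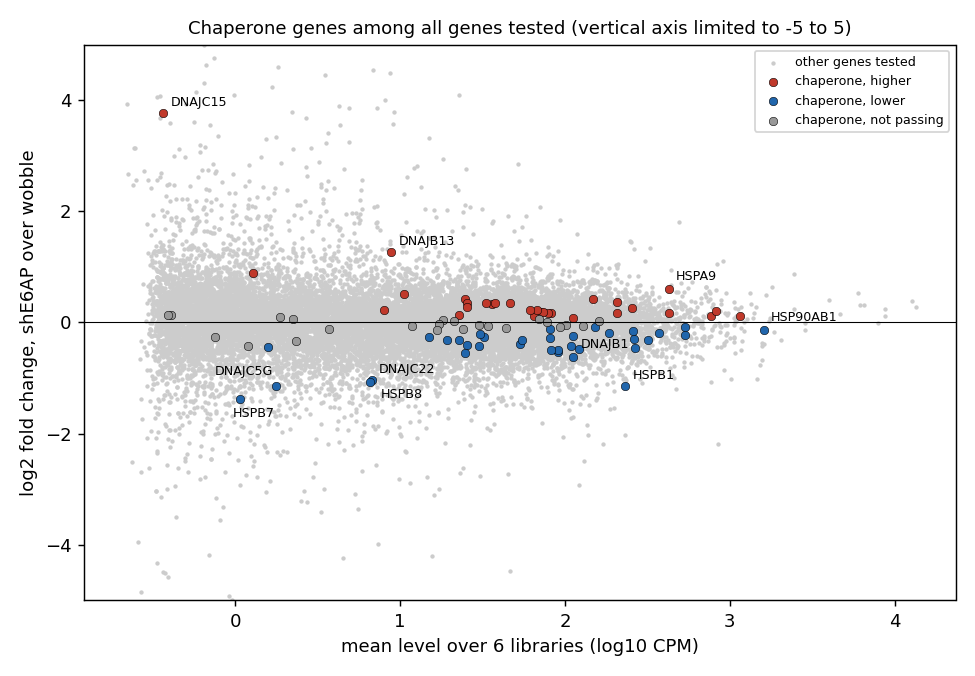
Log2 fold change (vertical axis, shE6AP over wobble, with a few genes beyond its limits not drawn) against the mean level over the 6 libraries (horizontal axis, log10 CPM) for all genes tested (grey) and chaperone members (coloured by the test). The abundant members lie close to 0, with HSPB1 the member of high level that fell furthest.

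Small heat shock proteins were the class with the lowest median. Of 5 tested members 3 fell, none rose and 2 did not pass, with a median log2 fold change of -1.08. HSPB1, which encodes HSP27, holds unfolding proteins and binds actin filaments. It stood at 146, 156 and 134 CPM in the shE6AP libraries and at 333, 323 and 305 CPM in the wobble libraries. The lowest wobble library was still 1.96 times the highest shE6AP library, and the mean in shE6AP was 45.4% of that in wobble (log2 fold change -1.14, SE 0.0390, adjusted p 2.59e-27). HSPB8, which works with BAG3 in selective autophagy of damaged proteins, stood at 5.08, 3.75 and 3.67 CPM against 8.19, 9.41 and 9.19 CPM. The groups did not overlap, although the level was low (log2 fold change -1.08, SE 0.106, adjusted p 6.36e-12). HSPB7, known from heart and muscle, was near the lower end of what these libraries can show, with 18, 8 and 18 reads in shE6AP and 48, 55 and 32 in wobble (log2 fold change -1.39, adjusted p 4.96e-06).

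The other members of this class gave no call. HSPB11, a subunit of intraflagellar transport that carries the family name, was at 21.6 ± 0.374 CPM in shE6AP and 21.1 ± 1.56 CPM in wobble (n = 3 each). HSPB6 was at 1.02 and 1.37 CPM on average with groups that overlapped (log2 fold change -0.42, adjusted p 0.110). HSPB3 and HSPB9 had too few reads to test. Summed, the class came to 175, 183 and 161 CPM in shE6AP and 366, 356 and 339 CPM in wobble, 48.9% of the wobble level. HSPB1 made up 84.0% of those reads in shE6AP and 90.6% in wobble, so the class sum is mainly that gene. Per kilobase of annotated exon, HSPB1 had rank 3 among the members in wobble, at 196 CPM per kb, and rank 7 in shE6AP, at 89.0 CPM per kb.

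The cytosolic HSP70 genes split between the constitutive form and the heat-inducible pair. HSPA8, which encodes HSC70, the form made at all times, stood at 435, 451 and 471 CPM in shE6AP and at 422, 374 and 412 CPM in wobble. Every shE6AP library was above every wobble library, and the rise was small (log2 fold change 0.17, SE 0.0363, adjusted p 1.18e-04). HSPA1A and HSPA1B encode the heat-inducible HSP70 and are near-identical in sequence, so the reads may be split between them and each value is uncertain. HSPA1A was at 73.8, 80.3 and 79.2 CPM against 86.5, 81.0 and 85.8 CPM (log2 fold change -0.12, SE 0.0392, adjusted p 0.00715). The groups nearly touch, and without shE6AP library 1 the adjusted p was 0.101. HSPA1B was at 70.0, 72.6 and 78.2 CPM against 92.2, 85.5 and 91.1 CPM, with groups apart (log2 fold change -0.29, SE 0.0405, adjusted p 5.48e-08). In the GENCODE models 36.5% of the HSPA1B exon bases are shared with another gene on the same strand, AL671762.1.

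Within the cytosolic HSP70 reads (HSPA8, HSPA1A, HSPA1B, HSPA1L, HSPA2 and HSPA6) the balance moved towards HSPA8. Its share was 71.5%, 71.1% and 71.4% in shE6AP and 67.5%, 66.0% and 67.1% in wobble. That of HSPA1A and HSPA1B together, which does not depend on how their reads are split, was 23.7%, 24.1% and 23.9% in shE6AP and 28.5%, 29.4% and 28.8% in wobble. Neither share overlapped between the groups. The sum of these genes was 634 ± 26.02 CPM in shE6AP and 602 ± 31.4 CPM in wobble (n = 3 each), a difference of about the spread between libraries. HSPA6, the strictly inducible HSP70, was at 0.631, 0.984 and 0.459 CPM in shE6AP and at 0.892, 0.761 and 0.775 CPM in wobble, with overlapping groups (log2 fold change -0.26, adjusted p 0.427). HSPA6 stayed under 1 CPM in every library, and whether the cells were under stress was not tested.

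**Figure D3:**
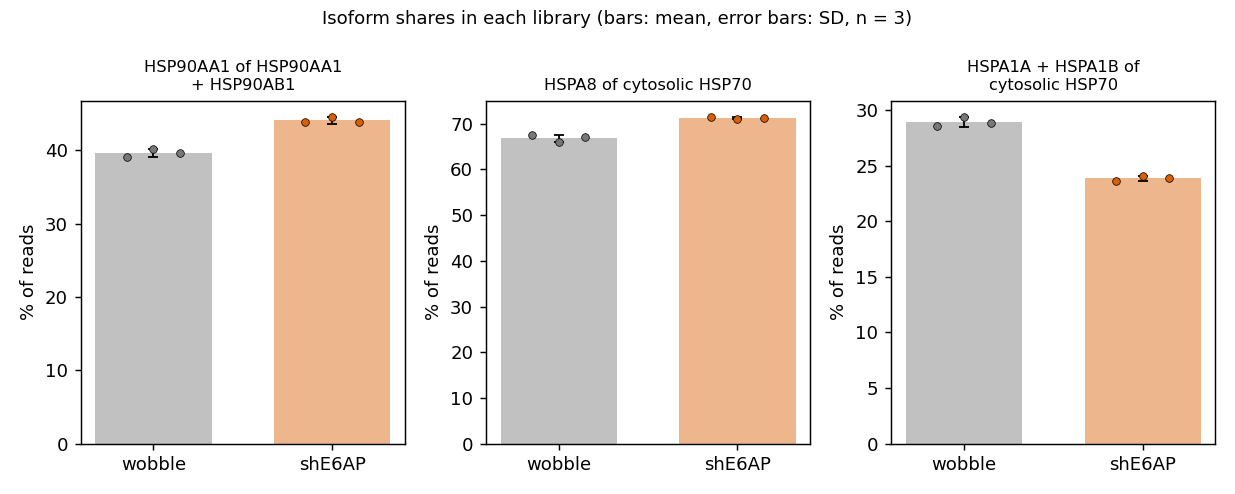
Share of reads (vertical axes, % of the reads named above each panel) for HSP90AA1 within the cytosolic HSP90 pair and for HSPA8 and HSPA1A plus HSPA1B within cytosolic HSP70; points are libraries, bars the mean and error bars the SD of the 3 libraries of a group. The shE6AP libraries lie apart from the wobble libraries in each panel, at 44.1% against 39.7%, 71.3% against 66.8% and 23.9% against 28.9% on average.

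Of the other HSP70 genes, HSPA9, HSPA14 and HSPA2 were higher in shE6AP. HSPA9, or mortalin, is the HSP70 of the mitochondrial matrix, where it pulls imported proteins across the inner membrane and serves iron-sulphur cluster assembly. It stood at 518, 505 and 513 CPM in shE6AP and at 339 ± 0.400 CPM in wobble (n = 3), with all 3 wobble libraries between 338.3 and 339.1 CPM. It was 1.51 times as high in shE6AP and had the largest rise among members above 20 CPM in both groups (log2 fold change 0.60, SE 0.0310, adjusted p 9.09e-21). HSPA14, which works with the J-domain protein DNAJC2 at the ribosome, stood at 67.9, 64.2 and 67.5 CPM against 57.0, 56.0 and 57.5 CPM (log2 fold change 0.23, SE 0.0393). DNAJC2, its partner, rose too (0.23 on the log2 scale). HSPA2, known for its part in sperm development, was at 26.9, 27.3 and 29.3 CPM against 22.1, 23.7 and 23.0 CPM (log2 fold change 0.28, SE 0.0533).

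Across the 12 tested HSP70 genes, 5 rose (HSPA2, HSPA5, HSPA8, HSPA9 and HSPA14), 3 fell (HSPA1A, HSPA1B and HSPA12B) and 4 did not pass, with a median log2 fold change of 0.01. HSPA12B, at 1.33 and 1.83 CPM, passed by little (log2 fold change -0.45, adjusted p 0.0364) and gave an adjusted p of 0.211 without shE6AP library 3, 0.121 without wobble library 2 and 0.0638 without wobble library 3. HSPA13, HSPA12A, HSPA1L and HSPA6 were the 4 that did not pass, and HSPA7 was not tested. The class sum was 2099, 2131 and 2152 CPM in shE6AP and 1877, 1809 and 1888 CPM in wobble. That is 114.5% of the wobble level, carried mostly by HSPA9, HSPA5 and HSPA8.

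The HSP110 proteins, relatives of HSP70 that act as its nucleotide exchange factors, did not move together. HSPA4, or APG-2, stood at 231, 233 and 234 CPM in shE6AP and at 179, 177 and 184 CPM in wobble (log2 fold change 0.37, SE 0.0323, adjusted p 1.5e-13). HSPH1, or HSP105, was lower, at 46.9, 48.9 and 50.4 CPM against 61.1, 57.3 and 62.6 CPM (log2 fold change -0.31, SE 0.0425, adjusted p 2.68e-08). HSPA4L, or APG-1, was also lower, at 24.8, 25.7 and 26.7 CPM against 31.5, 34.8 and 38.1 CPM (log2 fold change -0.43, SE 0.0557). Each of the 3 genes had groups that did not overlap. Since HSPA4 is the most abundant of them, the class sum in shE6AP was 112% of that in wobble while 2 of its 3 genes fell.

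Among HSP90 genes the inducible and the constitutive form moved in opposite directions, each by little. HSP90AA1, the stress-responsive cytosolic form, stood at 1204, 1216 and 1191 CPM in shE6AP and at 1107, 1099.5 and 1113 CPM in wobble (log2 fold change 0.12, SE 0.0308, adjusted p 7.18e-04). HSP90AB1, the constitutive form, stood at 1543, 1512 and 1524 CPM against 1725, 1632 and 1694 CPM (log2 fold change -0.14, SE 0.0319, adjusted p 1.76e-04). No library of one group entered the range of the other for either gene. The share of HSP90AA1 in the pair was 43.8%, 44.6% and 43.9% in shE6AP and 39.1%, 40.3% and 39.6% in wobble. Per kilobase of exon the order of the pair did not change: HSP90AB1 was at 512 CPM per kb in shE6AP and 565 in wobble, and HSP90AA1 at 229 and 211. Both genes have many pseudogene copies from which their reads may not be separable. Of the HSP90 pseudogenes among the members, HSP90AA6P and HSP90AB2P were tested without passing and the other 4 had too few reads.

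The HSP90 cochaperones among the members both fell. AHSA1, which binds the middle domain of HSP90 and speeds its ATPase, stood at 66.9, 71.8 and 65.8 CPM in shE6AP and at 99.5, 94.5 and 93.1 CPM in wobble. The groups are far apart relative to their spread (log2 fold change -0.49, SE 0.0393, adjusted p 1.19e-14). STIP1, or HOP, which hands clients from HSP70 to HSP90, stood at 236, 242 and 229 CPM against 298, 287 and 285 CPM (log2 fold change -0.30, SE 0.0327, adjusted p 9.87e-11). Together they came to 78.7% of the wobble level, while summed HSP90 transcripts came to 102%. Other HSP90 cochaperones, from a list of related genes outside the members, showed both directions. UNC45A, a myosin chaperone that binds HSP90, fell by 0.62, CHORDC1 by 0.45 and SUGT1 by 0.47 on the log2 scale, and PPID, or cyclophilin 40, stood at 7.53 ± 0.909 CPM against 14.3 ± 0.955 CPM (n = 3 each, log2 fold change -0.91, SE 0.0819). CDC37, which loads kinases onto HSP90, was at 264 ± 11.8 CPM against 293 ± 5.75 CPM (log2 fold change -0.15, SE 0.0335), and its relative CDC37L1 rose by 0.61. PTGES3, or p23, which stabilises the closed state of HSP90, was higher, at 376 ± 9.03 CPM against 317 ± 4.91 CPM (log2 fold change 0.25, SE 0.0318).

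**Figure D4:**
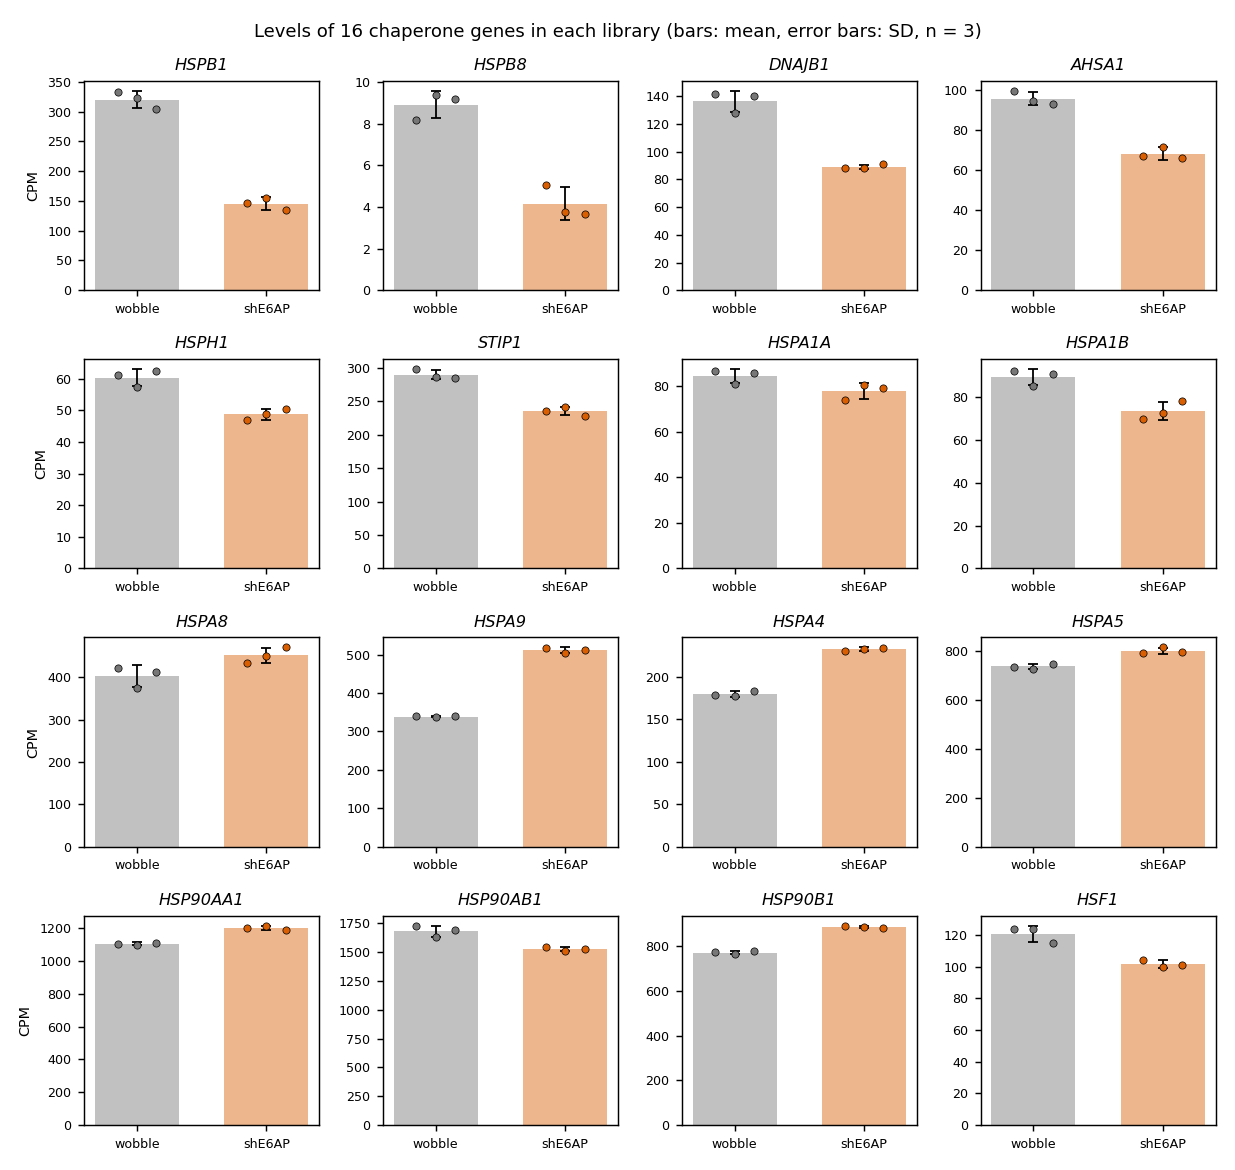
Level in CPM (vertical axis of each panel, from 0) of 16 chaperone genes in the wobble and shE6AP groups; points are libraries, bars the mean and error bars the SD of the 3 libraries of a group. HSPB1 and HSPB8 are at 45.4% and 46.7% of the wobble mean in shE6AP, HSPA9 is at 151%, and the HSP90 and HSPA5 panels differ little.

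The endoplasmic reticulum has its own set, in which HSPA5 (BiP) is the HSP70 and HSP90B1 (GRP94) the HSP90. Of a list of 10 members placed there, which leaves out some J-domain proteins of its membrane such as DNAJC14, DNAJC16, DNAJC18 and DNAJC25, 5 rose, 3 fell and 2 did not pass, with a median log2 fold change of 0.02. HSPA5 stood at 790.0, 814 and 795 CPM in shE6AP and at 735, 728 and 747 CPM in wobble (log2 fold change 0.12, SE 0.0310, adjusted p 0.00106). HSP90B1 stood at 893, 885 and 883 CPM against 774, 764 and 777 CPM (log2 fold change 0.20, SE 0.0306, adjusted p 2.40e-07). The libraries of each group were close together for these abundant genes, and neither gene had overlapping groups.

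Their J-domain partners were less uniform. DNAJC10, or ERdj5, which reduces disulphides before export of misfolded proteins, stood at 173, 169.7 and 168 CPM in shE6AP and at 127, 123 and 133 CPM in wobble (log2 fold change 0.41, SE 0.0347, adjusted p 5.69e-14). DNAJB9, or ERdj4, which restrains the sensor IRE1 through BiP, stood at 30.02, 27.9 and 27.3 CPM against 21.0, 21.1 and 21.3 CPM (log2 fold change 0.43, SE 0.0535). Both were higher in every shE6AP library. DNAJB11, or ERdj3, a secreted cofactor of BiP, went the other way, at 101, 99.0 and 105 CPM against 137, 142 and 144 CPM (log2 fold change -0.48, SE 0.0355, adjusted p 1.53e-15). DNAJC3, or p58IPK, an inhibitor of the kinase PERK, was at 16.7, 15.6 and 19.4 CPM against 21.3, 21.1 and 21.9 CPM (log2 fold change -0.31, SE 0.0634, adjusted p 3.92e-05). DNAJC1 fell by 0.25 on the log2 scale, DNAJB12 rose by 0.11, and HSPA13 and DNAJB14 did not pass. DNAJB12 no longer passed without shE6AP library 2 (adjusted p 0.0839), wobble library 2 or wobble library 3. Among related genes of this compartment outside the members, the BiP exchange factors SIL1 and HYOU1 rose by 0.26 and 0.13, and SERPINH1, the collagen chaperone HSP47, stood at 90.1 ± 0.322 CPM in shE6AP against 70.3 ± 0.258 CPM. SEC63, the J-domain partner of BiP at the translocon, was at 119 ± 2.47 CPM against 118 ± 2.50 CPM and did not pass.

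HSPA5 and HSP90B1 were the members whose promoters held the endoplasmic reticulum stress element, a site of the factors NF-Y and ATF6, and their sequences are shown because both genes rose. The letters searched were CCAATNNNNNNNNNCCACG, on both strands of the 250 bases before each RefSeq transcription start. They occurred in 0.0740% of 35116 promoters, in 0.0916% of 27305 genes counted once each, and in 2 of the 80 members with a promoter sequence (2.5%). Capitals mark the element, and each sequence is given on the strand of the gene, from RefSeq (GRCh38.p14). The HSPA5 window is shown whole (chr9:125241344-125241593, minus strand), with the element 66 to 48 bases before the start.
HSPA5: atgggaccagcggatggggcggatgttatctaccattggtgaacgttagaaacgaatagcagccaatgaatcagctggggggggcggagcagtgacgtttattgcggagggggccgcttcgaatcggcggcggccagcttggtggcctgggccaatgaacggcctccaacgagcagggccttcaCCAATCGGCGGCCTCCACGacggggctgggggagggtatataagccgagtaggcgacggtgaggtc
HSP90B1 held it on both strands, 194 to 176 bases before the start (chr12:103930211-103930239, plus strand) and, in reverse, 89 to 71 bases before it (chr12:103930316-103930344).
HSP90B1 first: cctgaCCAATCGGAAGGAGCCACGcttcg
HSP90B1 second: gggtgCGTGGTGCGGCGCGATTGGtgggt
Both HSP90B1 windows lie wholly within GENCODE exons of that gene, so they are not before every annotated start. A match describes the letters only, and a promoter without them may hold a variant that was not searched.

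In mitochondria the HSP70 and the chaperonin moved apart. HSPD1 (HSP60), the chaperonin of the matrix, stood at 243, 243 and 244 CPM in shE6AP and at 275, 268 and 270.4 CPM in wobble (log2 fold change -0.15, SE 0.0315, adjusted p 4.44e-05). HSPE1 (HSP10), its lid, stood at 29.3, 28.0 and 27.8 CPM against 33.3, 32.1 and 32.9 CPM (log2 fold change -0.21, SE 0.0485, adjusted p 3.02e-04). These genes face each other across a shared promoter, and their changes had the same direction and similar size. In the GENCODE models overlaps with HSPD1 on the opposite strand and with HSPE1-MOB4 sum to 23.9% of the HSPE1 exon bases. Against these falls, HSPA9 rose, as did GRPEL1 outside the members, the exchange factor that recycles it (52.7 ± 2.91 to 66.3 ± 1.32 CPM, n = 3 each, log2 fold change 0.33, SE 0.0416). TRAP1, the mitochondrial HSP90, was at 144 ± 6.67 CPM against 133 ± 1.97 CPM (log2 fold change 0.12, adjusted p 0.00433). GRPEL2 also rose, by 0.11 on the log2 scale. The protease and unfoldase genes of the same list went the other way, with CLPX lower by a log2 fold change of -0.18, CLPB by -0.14 and LONP1 by -0.12, while CLPP and HSCB did not pass.

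The J-domain proteins of mitochondria added few calls. DNAJA3, the partner of HSPA9 in the matrix, was at 78.2 ± 0.725 CPM in shE6AP and 77.3 ± 2.06 CPM in wobble (n = 3 each) and did not pass. DNAJC19, a member of the import motor, and DNAJC30 did not pass either. DNAJC11, of the complex that shapes the inner membrane, rose by 0.35 on the log2 scale, though 27.9% of its exon bases are shared with THAP3 on the opposite strand. DNAJC15, also of the import motor and known to be silenced by promoter methylation in some tumours, had 22, 14 and 15 reads in shE6AP and 1, 1 and 2 reads in wobble. Its fitted log2 fold change of 3.77 (adjusted p 6.42e-09) rests on 4 reads in the wobble group and depends on the prior count. In both groups it remained under 1 CPM.

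The cytosolic chaperonin, also called TRiC, is a ring of subunits encoded by TCP1 and the CCT genes, each present in equal number in the ring. Of the 9 tested genes, 6 fell, 1 rose and 2 did not pass, with a median log2 fold change of -0.09. CCT7 changed most, at 230.4, 226 and 217 CPM in shE6AP and 318, 302 and 309 CPM in wobble (log2 fold change -0.46, SE 0.0330, adjusted p 3.14e-16). CCT8 went against the rest, at 285, 278 and 277 CPM against 237, 224 and 236 CPM (log2 fold change 0.27, SE 0.0325, adjusted p 1.84e-09). Both genes had groups that did not overlap, as had 62.6% of all genes tested. The transcripts of this ring thus did not all move in the same direction. Over all genes tested, 30.4% were lower and 28.6% higher. CCT3 was at 499.9, 486 and 491 CPM against 597, 557 and 576 CPM (log2 fold change -0.23, SE 0.0321), and CCT4 at 175, 165 and 178 CPM against 199, 197 and 196 CPM (log2 fold change -0.19, SE 0.0337). CCT6A fell by 0.19 on the log2 scale.

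The remaining subunits changed least. CCT5 and TCP1 passed with falls of 0.09 and 0.08 on the log2 scale (adjusted p 0.0171 and 0.0377). CCT5 no longer passed without shE6AP library 3 (adjusted p 0.139), and TCP1 no longer passed when any 1 shE6AP library or wobble library 3 was left out, with an adjusted p of up to 0.112. TCP1 was also lost with each other scaling and with DESeq2. CCT2 was at 161 ± 3.09 CPM in shE6AP and 159 ± 2.27 CPM in wobble, and CCT6B, a testis form, was near 2 CPM; neither passed. CCT8L1 and CCT8L2 had too few reads to test. The sum of the class in shE6AP was 90.9% of that in wobble. Prefoldin, which passes unfolded actin and tubulin to this ring, is outside the members; of its 6 tested genes 2 rose, 2 fell and 2 did not pass, with PFDN1 higher by 0.51 (SE 0.0394) and PFDN5 lower, at 88.6 ± 5.47 CPM against 117 ± 5.16 CPM.

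The J-domain proteins are the largest class, and they choose the client and the place for HSP70. Of 4 DNAJA genes 1 rose, 1 fell and 2 did not pass. DNAJA1, the main cytosolic partner of HSC70, was at 124, 121 and 130.5 CPM in shE6AP and 131, 129 and 134 CPM in wobble, with overlapping groups (log2 fold change -0.07, adjusted p 0.109). DNAJA2 was at 82.3, 84.7 and 83.9 CPM against 74.4, 70.5 and 77.2 CPM (log2 fold change 0.18, SE 0.0385), and DNAJA4 at 21.8, 21.0 and 23.1 CPM against 28.1, 28.8 and 30.2 CPM (log2 fold change -0.40, SE 0.0535). All 3 are cochaperones of cytosolic HSP70, and their sum over the class, DNAJA3 included, was 99.2% of the wobble level.

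Of 10 tested DNAJB genes 5 rose, 2 fell and 3 did not pass. DNAJB1, or HSP40, the stress-inducible J-domain protein that works with HSP70 in pulling apart aggregates, stood at 88.0, 88.0 and 90.9 CPM in shE6AP and at 141, 128 and 139.8 CPM in wobble. It was at 65.3% of its wobble level (log2 fold change -0.61, SE 0.0381, adjusted p 3.37e-18). DNAJB13, an axonemal protein of cilia and sperm, was higher, at 13.1, 12.1 and 12.4 CPM against 5.38, 5.61 and 4.61 CPM (log2 fold change 1.27, SE 0.0870, adjusted p 9.53e-17). Of its exon bases 23.0% are shared with AP003717.1 on the opposite strand, and how reads there were counted is not known. DNAJB4, a close relative of DNAJB1, was at 77.7, 75.9 and 80.5 CPM against 67.5, 65.8 and 72.0 CPM (log2 fold change 0.19, SE 0.0396), opposite in direction to DNAJB1. DNAJB6, which keeps polyglutamine proteins from aggregating, rose by 0.16 on the log2 scale. DNAJB2, DNAJB5 and DNAJB14 did not pass, and DNAJB7 was not tested.

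The DNAJC genes share only the J domain, and their roles are diverse. Of 28, all tested, 12 rose, 10 fell and 6 did not pass, with a median log2 fold change of 0.05. DNAJC5, or cysteine string protein, which guards the fusion machinery of secretory vesicles, stood at 73.6, 74.0 and 73.6 CPM in shE6AP and at 110.1, 106 and 104 CPM in wobble (log2 fold change -0.54, SE 0.0366, adjusted p 9.11e-17). DNAJC6, or auxilin, which removes clathrin coats, was at 19.2, 19.9 and 21.7 CPM against 28.2, 29.1 and 31.1 CPM (log2 fold change -0.54, SE 0.0562). DNAJC22 was at 4.80, 3.75 and 4.59 CPM against 9.11, 9.07 and 9.12 CPM (log2 fold change -1.04, SE 0.0975). In these 3 genes every shE6AP library lay below every wobble library by more than the range within either group. GAK, the widely expressed relative of auxilin outside the members, was at 119 ± 3.69 CPM against 119.5 ± 2.32 CPM and did not pass.

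Other DNAJC genes that fell were DNAJC8, a splicing-associated protein (-0.49 on the log2 scale), DNAJC21, which acts in ribosome maturation (-0.43), and DNAJC7, which binds both HSP70 and HSP90 (-0.39), with DNAJC4 (-0.26). DNAJC5G, a germline relative of DNAJC5, had 33, 16 and 33 reads against 76, 59 and 76. Among those that rose, DNAJC27, a Rab-like protein with a J domain, was at 11.4, 12.5 and 13.2 CPM against 8.85, 8.65 and 8.52 CPM (log2 fold change 0.50, SE 0.0776). DNAJC18 was at 28.9, 27.9 and 28.5 CPM against 21.9, 22.8 and 22.5 CPM (log2 fold change 0.35, SE 0.0517). DNAJC9, a chaperone of histones H3 and H4 with a peak in S phase, rose by 0.35, and DNAJC16 rose by 0.34. Overlaps with other genes sum to 29.1% of the DNAJC9 exon bases. DNAJC12, a partner of aromatic amino acid hydroxylases, had 50, 34 and 39 reads against 25, 29 and 23. DNAJC13, DNAJC17 and DNAJC25 passed with rises of 0.08, 0.23 and 0.13, and each was lost when certain single libraries were left out. For DNAJC13 and DNAJC25 any 1 of the 6 libraries sufficed, with an adjusted p of up to 0.110 and 0.0834. DNAJC17 was lost without shE6AP library 1 (adjusted p 0.234) or wobble library 2.

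BAG proteins bind the nucleotide-binding domain of HSP70 and release its client to different fates. Of the 6 genes 3 rose, 1 fell and 2 did not pass. BAG6, which captures membrane proteins that miss their target and sends them to the proteasome, was the most abundant, at 282, 289 and 276 CPM in shE6AP and 356, 356 and 344 CPM in wobble (log2 fold change -0.32, SE 0.0320, adjusted p 1.08e-11). BAG4, a regulator of death receptors, was at 39.3, 40.1 and 40.9 CPM against 29.2, 33.7 and 32.1 CPM (log2 fold change 0.34, SE 0.0490). BAG5 was at 77.0, 74.1 and 76.4 CPM against 62.6, 67.9 and 69.7 CPM (log2 fold change 0.19, SE 0.0402). BAG2, an inhibitor of the ubiquitin ligase CHIP, was at 88.0, 84.9 and 88.0 CPM against 77.7, 79.7 and 74.9 CPM (log2 fold change 0.17, SE 0.0374). Overlaps with genes of the opposite strand sum to 44.2% of the BAG2 exon bases. BAG3, the stress-induced partner of HSPB8 in selective autophagy, was at 97.3, 106 and 98.1 CPM against 105, 100.1 and 107 CPM, with overlapping groups (log2 fold change -0.05, SE 0.0376, adjusted p 0.248). BAG1 did not pass either. STUB1, which encodes CHIP and is outside the members, was at 27.9 ± 1.97 CPM against 33.5 ± 0.600 CPM (log2 fold change -0.26, SE 0.0507).

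Both heat shock factors were lower. HSF1, the main activator of chaperone genes under stress, stood at 104, 99.5 and 101 CPM in shE6AP and at 124, 124 and 115 CPM in wobble (log2 fold change -0.25, SE 0.0367, adjusted p 1.35e-07). HSF2, which binds the same elements and is active in development, stood at 20.9, 19.3 and 20.9 CPM against 24.5, 24.4 and 27.2 CPM (log2 fold change -0.31, SE 0.0571, adjusted p 8.14e-06). The activity of HSF1 is set mostly by trimerisation and phosphorylation of the protein, which these data do not measure. Of 17 members with a known link to HSF1 in the heat shock response, 12 fell, 3 rose (HSPA8, HSP90AA1 and DNAJB6) and 2 did not pass (DNAJA1 and BAG3), with a median log2 fold change of -0.15 where that of all genes was 0.01. The list was set with earlier results of these data known, so its direction is no independent evidence. It leaves out HSPA6, which did not pass, and holds TCP1, whose call was lost under several alternatives. Of 12 tested HSF1-linked genes outside the members, 7 fell, 3 rose and 2 did not pass, with a median of -0.16. Lower were 70.6% of the HSF1-linked members and 58.3% of the HSF1-linked genes outside them, and higher were 17.6% and 25%. Over all genes tested, 30.4% were lower and 28.6% higher. CACYBP, a partner of the ligase SIAH1, stood at 33.7 ± 1.202 CPM against 81.7 ± 2.34 CPM (n = 3 each, log2 fold change -1.28, SE 0.0422), further down than HSPB1. MRPL18 and the ubiquitin gene UBB fell by 0.61 and 0.33, and SERPINH1 and PTGES3 were among those that rose.

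**Figure D5:**
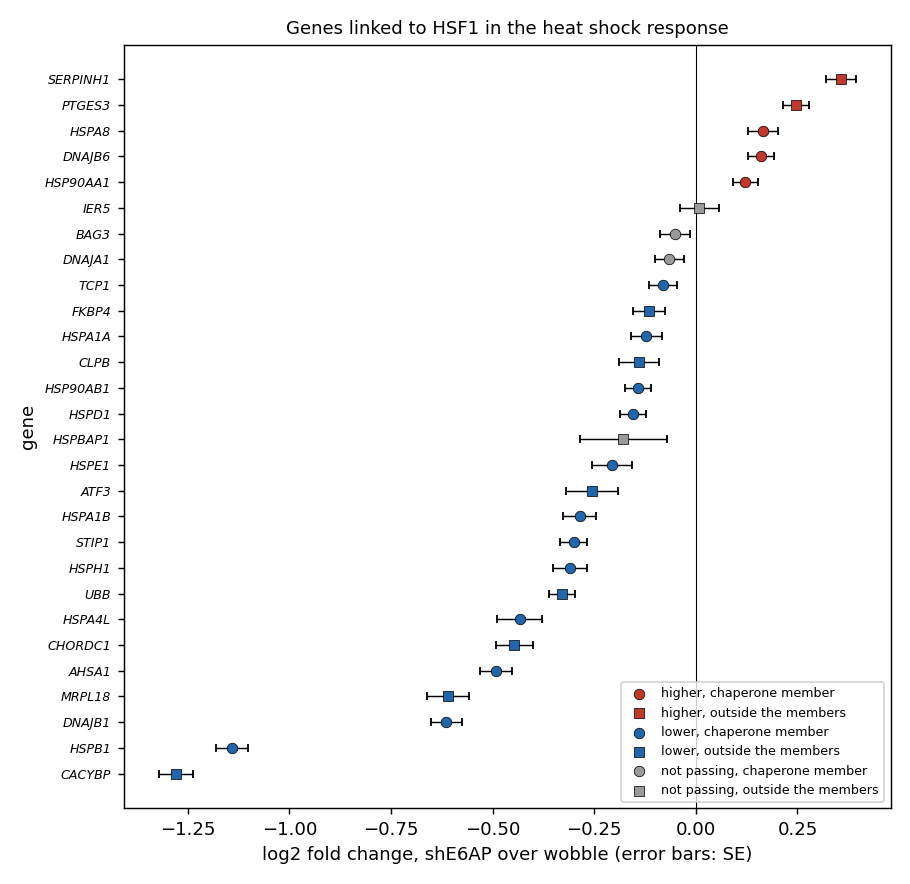
Log2 fold change (horizontal axis, shE6AP over wobble) of tested HSF1-linked genes (vertical axis, 1 gene of the list not drawn), circles for chaperone members and squares for other genes, coloured by the test, with error bars for the SE. Most points lie left of 0, from CACYBP at -1.28 and HSPB1 at -1.14 up to SERPINH1 at 0.36.

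The heat shock element, the site of HSF1, was sought in the promoters to show which letters these genes carry. Its unit is GAA in alternating orientation. The 3-unit form GAANNTTCNNGAA occurred, on either strand, in the 250 bases before the start in 0.441% of 35116 promoters, in 0.557% of 27305 genes counted once each, and in 6 of 80 members (7.5%). Of these, HSPA8, HSP90AA1 and DNAJB6 rose, HSP90AB1 and HSPD1 fell, and HSPA6 did not pass. The shorter form GAANNTTC, which the longer one contains, occurred in 5.78% of promoters, in 7.05% of genes and in 19 members (23.8%), of which 4 rose, 9 fell, 5 did not pass and 1 was not tested. Sites are shown for some of the genes that fell and for the genes that rose with the 3-unit form, so that their letters can be compared, with capitals for the element and flanks of up to 10 bases (RefSeq, GRCh38.p14, strand of the gene).
HSPB1, fell, chr7:76302481-76302508, plus strand: cttaacgagaGAAGGTTCcagatgaggg
HSPB8, fell, chr12:119178833-119178860, plus strand: catcacctccGAATATTCctgtgacagg
DNAJB1, fell, chr19:14518457-14518484, minus strand: gggcggggcgGAAGGTTCtggagggggc
DNAJB1, fell, chr19:14518427-14518454, minus strand: gcgggctctgGAAGCTTCcgccggacgg
HSPA1A, fell, chr6:31815427-31815454, plus strand: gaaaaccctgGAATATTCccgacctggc
HSPA1B, fell, chr6:31827623-31827650, plus strand: gaaacccctgGAATATTCccgacctggc
HSPD1, fell, 2 overlapping sites, chr2:197500062-197500090, minus strand: gcattTTCTGGAAAGTTCTGGAAccgagc
HSP90AB1, fell, chr6:44247770-44247798, plus strand: ggagcaggTTCTGGAAGATTCatgggctc
HSP90AB1, fell, chr6:44247823-44247851, plus strand: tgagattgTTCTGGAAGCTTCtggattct
HSPA8, rose, chr11:123062346-123062374, minus strand: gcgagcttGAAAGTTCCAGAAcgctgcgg
HSPA8, rose, chr11:123062171-123062199, minus strand: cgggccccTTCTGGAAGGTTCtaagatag
HSP90AA1, rose, chr14:102087112-102087140, minus strand: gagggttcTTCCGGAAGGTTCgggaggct
DNAJB6, rose, chr7:157336865-157336893, plus strand: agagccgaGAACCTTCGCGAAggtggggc
BAG2, which rose, and TCP1 and DNAJA4, which fell, hold the shorter form and are not shown. The 3-unit form stood before genes of both directions, in HSP90AB1 and HSPA8 with nearly the same letters. The site lies 182 to 175 bases before the start of HSPB1, 77 to 70 and 47 to 40 before that of DNAJB1, and 88 to 76 before that of HSP90AA1. The windows shown for HSPA8, HSP90AA1, HSPD1 and HSPB8 lie wholly within GENCODE exons of the same gene. They precede the RefSeq start used here but not every annotated start. These letters show that a sequence is present, not that a factor was bound in these cells.

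Set beside related genes, the members were not alone in this mixed pattern. Of 42 tested chaperones and cochaperones that the name rule does not reach, from a list of 44, 12 rose, 17 fell and 13 did not pass, with a median log2 fold change of -0.04. That is 28.6% higher and 40.5% lower, against 34.1% and 39.8% among the members. Over all genes tested, 28.6% were higher and 30.4% lower, so calls in both directions are not particular to chaperones. By level, 75 of the 98 members had a mean of at least 5 CPM, while 14 were under 1 CPM in both groups. HSPA7, HSPB3, HSPB9, DNAJB7, CCT8L1, CCT8L2 and 4 HSP90 pseudogenes are the members that could not be tested. They fell below the filter on low counts, and no statement is made on them. The exons of 44 members overlap those of another gene in the GENCODE models. Whether reads in such stretches were counted for the member or set aside as ambiguous depends on the annotation and strand setting, and neither is known here.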

How the data were processed

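RNA of 6 DU145 libraries (3 shE6AP, 3 wobble) was sequenced from libraries of the TruSeq RNA kit, version 2, per the labels' protocols; this kit does not mark strand. The submitters' processing notes name TopHat2 2.0.13, Bowtie2 and HTSeq and the build hg19. Which annotation and strand setting were used is not given in the sources used here. The values deposited by the authors are raw counts of reads, a whole number for each gene, with no normalization. Rows that name no gene, among them reads outside genes (14.6% to 16.0% of each column) and ambiguous reads (2.05% to 2.21%), were kept out of library sizes and tests.

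From these counts edgeR 4.0.16 (R 4.3.3) was run over the whole table: filterByExpr kept 19433 genes, TMM scaled the libraries, and the quasi-likelihood test compared the groups with no other term. The SE was derived from the fold change and F (fold change divided by √F). An exact permutation test of 3 libraries against 3 cannot give a p below 0.1, so none is used. Counts of libraries within a group differed by more than sampling noise (chi-square per gene of 1.76 to 3.52), so none was treated as a library deposited again. Whether libraries came from separate cultures cannot be read from this. Data were also simulated with these 19433 genes, of which only a small part was changed. In them the test found 48% of the changed genes at a fold of 1.2, 82% at 1.5, 88% at 2 and 98% at 4. Unchanged genes made up 5.39% of the calls. Whether these shares hold for the measured data, where 59% of all genes tested passed, was not tested.

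Members, classes and lists were chosen with earlier results of these data known. Named with values in every library were up to 3 higher and 3 lower members of each class with the largest change, among those that passed with 5 CPM or more on average and groups apart, and a set of 21 chosen whatever their values. Other members are given by fold change, group means or reads. Exon lengths and overlaps come from GENCODE 29 and may differ from the models the authors counted on. By name, 97 of 98 members matched. Overlaps were added over the overlapping genes, so a base shared with several of them counts more than once. Promoters come from RefSeq (GRCh38.p14) and 80 members matched. Alternatives were other scalings (RLE, upper quartile, library totals), other tools (DESeq2 1.42.0 and voom of limma 3.58.1), no filter on low counts or a stricter one (1 CPM in 3 libraries), a replicate block, glmTreat, and each library left out. A few marker and list genes are not reported here by name.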

Additional observations from a re-analysis of the deposited data

How the results depend on the processing

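No member that passed changed direction under any alternative run, and 57 of the 65 member calls held in every planned one other than glmTreat; CCT5, DNAJB12, DNAJC13, DNAJC17, DNAJC25, HSPA12B, HSPA1A and TCP1 did not. The other scalings shifted the median log2 fold change over all genes by at most 0.0283. With each library left out in turn, 60 to 66 members passed (26 to 29 higher, 33 to 37 lower) and 10708 to 11084 genes in all (5111 to 5307 higher, 5581 to 5782 lower). Against a fold of 1.2 glmTreat, a stricter null by construction, called 27 members (10 higher, 17 lower) and 5637 genes in all (2553 higher, 3084 lower). The libraries varied by 2.77% (biological coefficient of variation). Assumed values of 10% and 20%, chosen after seeing the data, left 34 members (13 higher, 21 lower) and 6743 genes (3110 higher, 3633 lower) at the first, and 8 members (3 higher, 5 lower) and 2237 genes (983 higher, 1254 lower) at the second, by construction of the wider error. The 8 members were HSPB1, HSPB7, HSPB8, DNAJB13, DNAJC12, DNAJC15, DNAJC22 and DNAJC5G. Most other calls thus need the small spread seen between these libraries.

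With the replicate number as a block, 71 members (30 higher, 41 lower) and 11979 genes passed, and UBE3A fell by 1.94 on the log2 scale. The labels give no sign that the numbers pair samples: deviations of same-numbered libraries correlated at 0.0438, 0.0166 and 0.0372, each highest for its own number, a hint from the data only. Depth limits the members under 1 CPM.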
